A study of Mus musculus with 4 samples.

Results

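The genes described here encode the MHC class II pathway: the chains H2-Aa, H2-Ab1 and H2-Eb1, the invariant chain Cd74, the peptide editor H2-DMa and the transcriptional regulator Ciita. They were measured on 4 microarrays of regulatory T cells sorted from mouse spleen. Every probe set annotated to one of these 6 genes alone was taken, which gave 14 of the 45101 probe sets on the array. The 6 genes were chosen by their measured Nrp1-positive minus Nrp1-negative differences, which ran one way in replicate 1 and the other way in replicate 2, so values of that contrast are given as a description, with no test.

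MHC class II molecules carry peptides from the endocytic route to the cell surface, where CD4 T cells read them. The alpha and beta chains assemble on the invariant chain, which blocks the groove and steers the complex to endosomes, where H2-DM helps exchange the last invariant chain fragment for peptide. Transcription depends on Ciita, which binds no DNA itself but joins the RFX, CREB and NF-Y factors on the X and Y boxes of the class II promoters. Dendritic cells, B cells and macrophages are the main class II-bearing cells of the spleen, and conventional mouse T cells are known for making little or none.

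All mice carried a GFP reporter of Foxp3, the factor that defines regulatory T cells, on the Balb/c strain. Spleen CD4+ Foxp3+ cells were sorted into those with surface Nrp1 (neuropilin 1), here called Nrp1-positive, and those without it, here called Nrp1-negative, with 2 arrays in each group. The labels give an age of 4-6 weeks for 3 of the arrays and 4-8 weeks for the array titled as the Nrp1-negative replicate 1. On that same array the source name and the cell type label read Nrp1-positive, against its title, and the title was followed.

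The Nrp1 message itself went with the titles. Its brightest probe set read 9344 and 7745 on the Nrp1-positive replicate 1 and 2 arrays, against 339.2 and 1223 on the Nrp1-negative replicate 1 and 2 arrays, and the groups did not overlap on any of the 4 Nrp1 probe sets. The single Foxp3 probe set was dim on every array, at 2.16 and 19.9 on the Nrp1-positive arrays and 4.45 and 36.4 on the Nrp1-negative arrays, so the labelled cell type could not be checked by that gene. Other regulatory T cell markers were bright, among them Ctla4, an inhibitory receptor, at 5715 and 9100 on the Nrp1-positive arrays and 6695 and 9051 on the Nrp1-negative arrays. The replicate 1 arrays had been deposited at a trimmed mean of 500.003 and the replicate 2 arrays at 150.001, and all intensities given here were brought to the higher of these.

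The promoter windows of H2-Aa and H2-Eb1 are printed because they hold the boxes through which class II genes are known to be controlled together. Windows of H2-Ab1, Cd74 and Ciita were not used here. The sequences are RefSeq windows of 300 bases on GRCm38.p6, running from 250 bases before to 50 bases after the annotated gene start, and they come from the C57BL/6J reference and not from Balb/c. Capitals mark the X box core GCAAC and the Y box GATTGG. The H2-Aa window lies at chr17:34287774-34288073 on the minus strand and the H2-Eb1 window at chr17:34305617-34305916 on the plus strand.
H2-Aa: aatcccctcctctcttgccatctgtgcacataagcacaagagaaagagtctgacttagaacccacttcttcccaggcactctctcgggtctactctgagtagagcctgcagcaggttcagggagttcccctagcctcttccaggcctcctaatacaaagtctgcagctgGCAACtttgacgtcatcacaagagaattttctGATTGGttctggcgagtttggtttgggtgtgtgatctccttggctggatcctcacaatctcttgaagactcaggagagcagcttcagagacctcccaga
H2-Eb1: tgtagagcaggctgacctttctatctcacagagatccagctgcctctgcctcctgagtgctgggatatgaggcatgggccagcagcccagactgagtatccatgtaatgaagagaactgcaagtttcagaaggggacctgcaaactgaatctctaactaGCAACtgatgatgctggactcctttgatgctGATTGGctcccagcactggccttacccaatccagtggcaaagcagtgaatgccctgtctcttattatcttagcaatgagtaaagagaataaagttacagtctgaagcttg
The X core began at position -81 in H2-Aa and -91 in H2-Eb1, counted from the gene start, and the Y box followed after 27 and 26 bases. Searched on both strands, GCAAC was present in 35.2% and GATTGG in 16.1% of the 32851 windows of this length in the table. Both together, X core first with 15 to 45 bases between them, were present in 167 windows, or 0.508%. Besides H2-Aa and H2-Eb1, the windows of H2-Oa and H2-Ob, which encode the chains of the H2-DM inhibitor H2-O, held the same arrangement. Their stretches lie at chr17:34092295-34092348 for H2-Oa and chr17:34238810-34238860 for H2-Ob, both on the plus strand. They are shown as further examples of the pair, picked after the array values of these genes were seen.
H2-Oa: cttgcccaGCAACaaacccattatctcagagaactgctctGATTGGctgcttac
H2-Ob: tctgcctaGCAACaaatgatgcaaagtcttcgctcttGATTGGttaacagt
H2-Eb2, a further class II beta chain gene, also held the pair. Neither of the 2 H2-DMa windows held both boxes: one held the X core alone and the other the Y box alone. A match to these letters describes the window and does not show that a factor binds there.

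Class II chain messages were highest on the Nrp1-negative replicate 2 array and lowest on the Nrp1-negative replicate 1 array, with both Nrp1-positive arrays between them. Within replicate 1 they were therefore higher in Nrp1-positive cells, and within replicate 2 lower. Of the 14 probe sets, 13 were higher in Nrp1-positive cells in replicate 1, against 47.9% of all 45037 non-control probe sets, and 14 were lower in replicate 2, against 46.9% of all. The directions were opposite in this way in 13 of 14, against 22.0% of all probe sets. These counts are those by which the genes were chosen.

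H2-Aa encodes the alpha chain of the I-A molecule. Its probe set 1435290_x_at read 472.0 and 1839 on the Nrp1-positive replicate 1 and 2 arrays, and 274.6 and 3531 on the Nrp1-negative replicate 1 and 2 arrays. Both replicate 2 arrays lay above both replicate 1 arrays, and the Nrp1-negative arrays lay on either side of the Nrp1-positive ones, so the groups overlapped. On the log2 scale, after adding 18.3 to each intensity, the Nrp1-positive minus Nrp1-negative difference was 0.74 in replicate 1 and -0.93 in replicate 2. The group means were 1156 ± 967 in Nrp1-positive cells and 1903 ± 2302 in Nrp1-negative cells (SD, n = 2 each), with an SD in the Nrp1-negative group above its mean.

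The other H2-Aa probe sets followed the same order of arrays. The probe set 1452431_s_at read 300.0 and 1136 on the Nrp1-positive arrays and 141.2 and 2599 on the Nrp1-negative arrays, with differences of 1.00 and -1.18. The probe set 1438858_x_at read 219.5 and 638.3 on the Nrp1-positive arrays and 146.4 and 797.3 on the Nrp1-negative arrays, with differences of 0.53 and -0.31. The fourth, 1443783_x_at, was dim, at 25.8 and 29.7 on the Nrp1-positive arrays and 2.54 and 32.0 on the Nrp1-negative arrays, and lay under the level filter.

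H2-Ab1 encodes the beta chain that pairs with H2-Aa. Its probe set 1450648_s_at read 561.4 and 583.3 on the Nrp1-positive arrays and 299.7 and 1362 on the Nrp1-negative arrays. Here the Nrp1-positive arrays were nearly level with each other while the Nrp1-negative arrays were the lowest and the highest of the 4. The differences were 0.87 in replicate 1 and -1.20 in replicate 2.

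Both remaining H2-Ab1 probe sets kept that order. The probe set 1451721_a_at read 129.2 and 395.8 on the Nrp1-positive arrays and 74.4 and 854.7 on the Nrp1-negative arrays, with differences of 0.67 and -1.08. The probe set 1425477_x_at read 100.045 and 398.1 on the Nrp1-positive arrays and 12.8 and 868.1 on the Nrp1-negative arrays, with differences of 1.92 and -1.09. It was the one member probe set that passed 2-fold in both directions, against 0.431% of all probe sets, and its replicate 1 difference rests on the 12.8 of the array with conflicting labels. With the mean array median as pseudocount it no longer passed (1.01 and -0.998), and with a pseudocount of 1 the H2-Aa probe set 1452431_s_at passed as well (1.08 and -1.19).

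H2-Eb1 encodes the beta chain of the other class II molecule, I-E. It read 309.2 and 702.3 on the Nrp1-positive arrays and 190.1 and 1495 on the Nrp1-negative arrays. The order of arrays was again that of H2-Aa, and the differences were 0.65 in replicate 1 and -1.07 in replicate 2. In the plot of intensities by array, the lines of the chain genes and Cd74 fall from Nrp1-positive to Nrp1-negative in replicate 1 and rise in replicate 2.

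**Figure D1:**
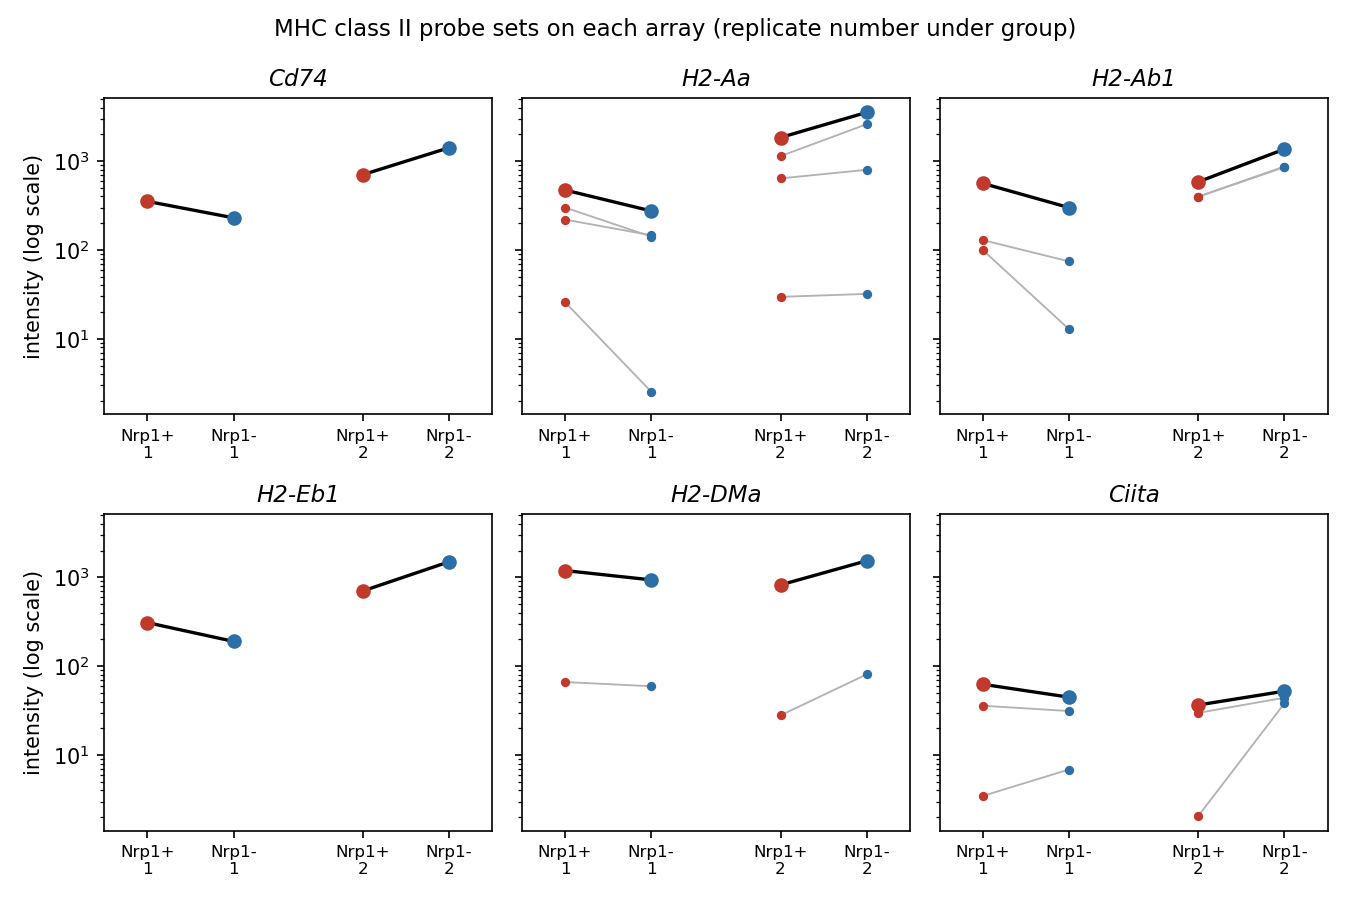
Intensity of member probe sets (log axis, arrays brought to one trimmed mean) on each of the 4 arrays, with Nrp1-positive (red) left of Nrp1-negative (blue) within each replicate number and the thick line for the probe set of highest mean. For H2-Aa 1435290_x_at the Nrp1-negative arrays are both the lowest (274.6, replicate 1) and the highest (3531, replicate 2), and the Nrp1-positive arrays lie between them.

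Cd74, the invariant chain, moved with the chains. Its probe set read 352.3 and 702.9 on the Nrp1-positive arrays and 229.7 and 1412 on the Nrp1-negative arrays. The Nrp1-negative arrays again held both extremes, and the differences were 0.58 in replicate 1 and -0.99 in replicate 2. The group means were 527.6 ± 247.9 in Nrp1-positive cells and 820.7 ± 835.8 in Nrp1-negative cells (SD, n = 2 each).

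H2-DMa encodes a chain of the peptide editor, and its array order was not that of the chains. The probe set 1422527_at read 1191 and 821.4 on the Nrp1-positive arrays and 935.8 and 1534 on the Nrp1-negative arrays. The lowest array was the Nrp1-positive replicate 2 and the highest the Nrp1-negative replicate 2, with differences of 0.34 in replicate 1 and -0.89 in replicate 2. The dim second probe set, 1459872_x_at, read 66.3 and 27.9 on the Nrp1-positive arrays and 59.4 and 80.9 on the Nrp1-negative arrays, with differences of 0.12 and -1.10.

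Ciita, the regulator on which class II transcription depends, was dim throughout, and none of its 3 probe sets passed the level filter. The probe set 1421210_at read 62.6 and 36.6 on the Nrp1-positive arrays and 44.8 and 52.3 on the Nrp1-negative arrays, with differences of 0.36 and -0.36. The probe set 1421211_a_at read 35.9 and 29.8 on the Nrp1-positive arrays and 31.3 and 44.1 on the Nrp1-negative arrays, with differences of 0.13 and -0.38. The third, 1447075_at, read 3.47 and 2.05 on the Nrp1-positive arrays and 6.87 and 38.1 on the Nrp1-negative arrays. It was the one member probe set that was not higher in Nrp1-positive cells in replicate 1 and the one whose groups did not overlap, against 25.3% of all probe sets without overlap.

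Over all 14 probe sets the median difference was 0.62 in replicate 1 and -1.03 in replicate 2. The median of the differences between the group means of log2 values was -0.14, and its sign depended on the arrays used. It was -1.32 without the Nrp1-negative replicate 1 array, whose labels conflict, and -0.56 without the Nrp1-positive replicate 2 array. It was 1.10 without the Nrp1-negative replicate 2 array and 0.32 without the Nrp1-positive replicate 1 array. At least 2-fold higher in Nrp1-positive cells in replicate 1 were 2 of 14, against 5.57% of all probe sets, and at least 2-fold lower in replicate 2 were 7 of 14, against 4.73%. The full order, Nrp1-negative 2, Nrp1-positive 2, Nrp1-positive 1, Nrp1-negative 1 from high to low, was found in 9 of 14, against 5.96%.

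Of the 14 probe sets, 9 passed the level filter, a mean intensity at or above the median over probe sets, and they stood for 5 of the 6 genes. All 9 were highest on the Nrp1-negative replicate 2 array, and 8 were lowest on the Nrp1-negative replicate 1 array, the exception being H2-DMa. No share over all probe sets was taken for these counts, which are a description only. The genes were chosen by differences that include these arrays, and a single high array can carry a probe set past a filter on the mean. Names ending in _x_at or _s_at mark probe sets whose probes also match other transcripts, and 6 of the 7 member probe sets without such a suffix ran in opposite directions in the 2 replicate numbers.

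Set against all 10198 genes that passed the filter, each by its probe set of highest mean, the members were among the genes with the most opposed differences. A measure of this pattern was taken as the smaller of the replicate 1 difference and the sign-turned replicate 2 difference. By it H2-Ab1 ranked 8, H2-Aa 19, H2-Eb1 26, Cd74 39 and H2-DMa 185 of 10198. The members were chosen by these same differences, so their high ranks follow from the choice and are given as a description. Opposed in the same way by any size were 23.1% of the genes, and past 2-fold both ways 0.0294%, which was 3 genes: Gsta4, Igha and Car1. These 3 and the members are named in the plot of one difference against the other.

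Igha, the constant region of IgA antibody, read 333.8 and 493.1 on the Nrp1-positive arrays and 104.5 and 2046 on the Nrp1-negative arrays, the same order as the chains. Car1, a carbonic anhydrase abundant in red cell precursors and gut, read 235.6 and 195.7 on the Nrp1-positive arrays and 76.7 and 584.3 on the Nrp1-negative arrays. Gsta4, a glutathione transferase, had another order, with 588.1 and 10.1 on the Nrp1-positive arrays and 121.7 and 65.0 on the Nrp1-negative arrays. The next 7 genes by the measure were Tspan33, 9630013D21Rik, Adssl1, Kntc1, Bex2, Cyp21a1 and Prdm16, with the measure between 0.98 and 0.83. The genes with the mirror pattern, lower in replicate 1 and higher in replicate 2, were led by Krtap12-1, at 32.8 and 117.0 on the Nrp1-positive arrays and 271.6 and 26.2 on the Nrp1-negative arrays, and went on with Atxn7l2, Rcor2, Defa39 and Rnf122.

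**Figure D2:**
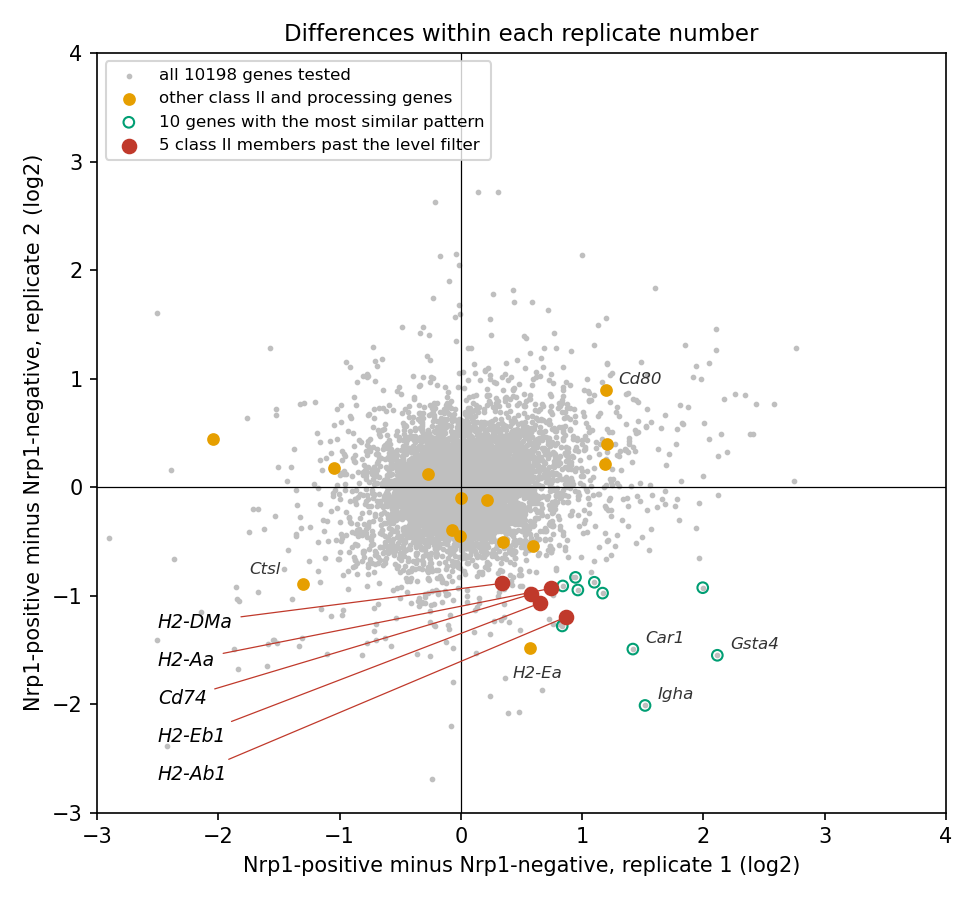
Nrp1-positive minus Nrp1-negative difference (log2) in replicate 1 (horizontal) and replicate 2 (vertical) for the 10198 genes tested, of which 2 lie outside the axes. The 5 class II members (red) sit right of 0 and below 0, at 0.34 to 0.87 in replicate 1 and -0.89 to -1.20 in replicate 2, H2-Ea lies near them, and Ctsl and Cd80 lie off that diagonal.

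The members' level also differed between replicate numbers, which is given as a description with no test. In a fit of group and replicate number on 4 arrays, the one residual left to each gene is the difference between the replicate numbers by which the genes were chosen. H2-Aa was 3.79-fold higher on the replicate 2 than on the replicate 1 array in Nrp1-positive cells, and 12.1-fold higher in Nrp1-negative cells. On the log2 scale H2-Eb1 was higher on replicate 2 by 1.14 in Nrp1-positive cells and 2.86 in Nrp1-negative cells.

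Cd74 was higher on replicate 2 by 0.96 in Nrp1-positive cells and 2.53 in Nrp1-negative cells. The Nrp1-positive arrays, which leave out the array with conflicting labels, thus had the same direction with a smaller size in these 3 genes. That smaller size follows from the choice of genes, which were higher in Nrp1-positive cells in replicate 1 and lower in replicate 2. H2-Ab1 differed by 0.05 in Nrp1-positive cells and 2.12 in Nrp1-negative cells, so that nearly all of its difference lay between the Nrp1-negative arrays. H2-DMa differed by -0.53 in Nrp1-positive cells and 0.70 in Nrp1-negative cells, in opposite directions. By probe set, 9 of 14 were higher on the replicate 2 array in both groups, all of H2-Aa, H2-Ab1, H2-Eb1 and Cd74, against 28.7% of all probe sets.

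Control probe sets also differed between replicate numbers. The 12 probe sets for spiked poly-A transcripts had a median intensity of 6.38 on the Nrp1-positive replicate 2 array, against 2384 on the Nrp1-positive replicate 1 array. Gapdh, read as its 3-prime over its 5-prime control probe set, gave ratios of 0.711 and 0.763 on the replicate 2 arrays of Nrp1-positive and Nrp1-negative cells, against 1.54 and 1.74 on their replicate 1 arrays. The part of these differences in the members' values was not tested.

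**Figure D3:**
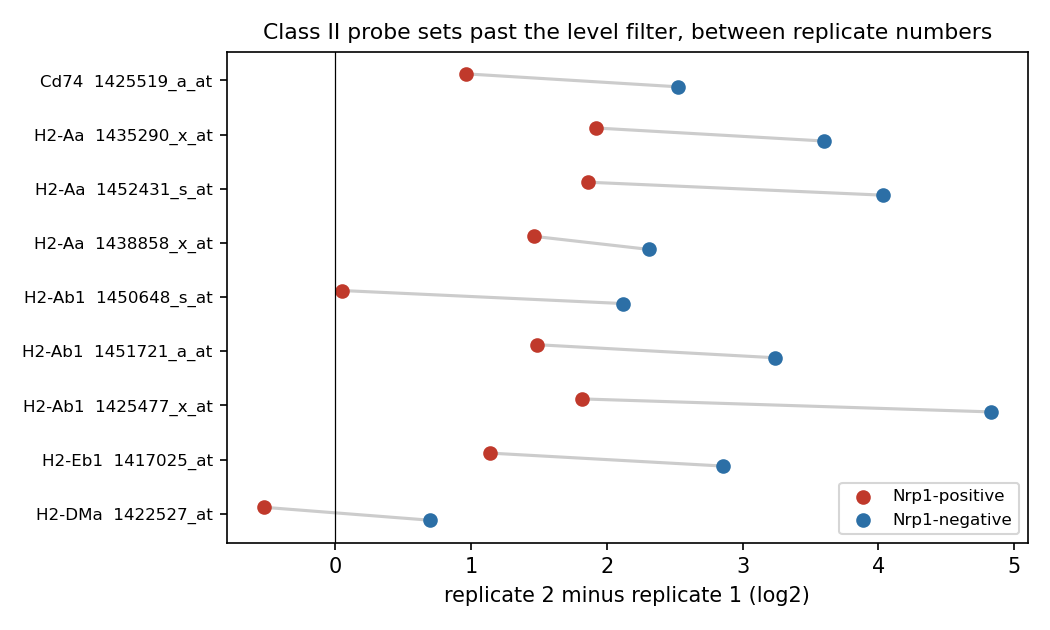
Replicate 2 minus replicate 1 difference (log2) of the 9 member probe sets past the level filter (rows), with a red point for Nrp1-positive cells and a blue point for Nrp1-negative cells, 1 array pair each. The red point lies left of the blue point in each row, for example at 1.92 for Nrp1-positive and 3.60 for Nrp1-negative cells for H2-Aa 1435290_x_at, and H2-DMa alone has a point left of 0. The order of red and blue follows from the choice of genes by opposite differences.

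Of 17 other genes of class II chains, loading, processing and costimulation, 15 had a probe set of their own and 14 passed the filter. Their median difference was 0.11 in replicate 1 and -0.11 in replicate 2, against 0.01 and 0.01 over all genes. Over all 15 measured the medians were 0.00 and -0.12. Higher in Nrp1-positive cells in replicate 1 and lower in replicate 2 were 5 of the 14, against 23.1% of all genes. In limma without the replicate number no gene of the list and no gene of all 10198 was called (0.0% in either direction), while at an unadjusted p under 0.05 there were 1 in the list and 149 over all genes. With the replicate number as a block, 34 genes (0.333%) rose and 23 genes (0.226%) fell in Nrp1-positive cells, and of the list Ctsl alone passed.

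H2-Ea, the alpha chain that pairs with H2-Eb1, had probe sets that disagreed. Its brightest, 1422892_s_at, read 410.2 and 1349 on the Nrp1-positive arrays and 270.8 and 3813 on the Nrp1-negative arrays, with differences of 0.57 and -1.49, and ranked 41 by the measure of the pattern. Its order of arrays was that of H2-Aa. The other H2-Ea probe set past the filter, 1422891_at, read 38.3 and 535.3 on the Nrp1-positive arrays and 49.0 and 1397 on the Nrp1-negative arrays, and was lower in Nrp1-positive cells in both replicate numbers (-0.25 and -1.35). H2-DMb2, the beta chain partner of H2-DMa, and Ifi30, a thiol reductase of the endosome, were picked after their values were seen. Their differences were 0.60 and -0.54 for H2-DMb2 and 0.35 and -0.51 for Ifi30. Further H2-DMb2 probe sets disagreed: 1443687_x_at had differences of 1.76 and -0.51, while 1419744_at was lower in both replicate numbers (-0.51 and -0.80).

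The chains of H2-O, picked in the same way, differed little between the groups. H2-Oa read 448.9 and 702.8 on the Nrp1-positive arrays and 448.1 and 756.0 on the Nrp1-negative arrays, with differences of 0.00 and -0.10, and it is one of the 5 counted above by sign alone. H2-Ob, the beta chain, read 3759 and 4203 on the Nrp1-positive arrays and 4530 and 3874 on the Nrp1-negative arrays, with differences of -0.27 and 0.12. Stretches of their promoter windows are printed above, and the part of the X core and Y box in the array values was not tested.

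Ctsl, the endosomal protease cathepsin L, was lower in Nrp1-positive cells in both replicate numbers. It read 1020 and 934.5 on the Nrp1-positive arrays and 2535 and 1756 on the Nrp1-negative arrays, without overlap. With the replicate block the limma difference was -1.10 (SE 0.13, adjusted p = 0.00958). Without the block its unadjusted p was 0.00501 and it was not called, and with the block but no variance trend none of the 10198 genes was called.

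Other listed genes reached 2-fold in at least one replicate number without passing either fit. Cd80, a costimulatory ligand, had differences of 1.20 in replicate 1 and 0.89 in replicate 2 (block adjusted p = 0.194 in limma). Cd83, which stabilises class II on the surface, had 1.21 and 0.40 (block adjusted p = 0.0977 in limma). Lgmn, an asparagine-specific protease of the endosome, had 1.19 and 0.21. H2-Eb2 had -2.05 and 0.44, and Marchf1, a ubiquitin ligase that sends class II for breakdown, had -1.05 and 0.17. None of these ran in the members' directions.

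The factors that sit on the class II promoters were measured in 7 genes of RFX, CREB and NF-Y. None passed either fit, a count that says little where 0.333% of all genes were called higher and 0.226% lower with the block and 0.0% without it. Their median difference was 0.19 in replicate 1 and 0.04 in replicate 2. Rfx5, a subunit of the X box factor named after its values were seen, read 920.0 and 1253 on the Nrp1-positive arrays and 903.1 and 1221 on the Nrp1-negative arrays. MHC class I presentation likewise gave 0 calls among 14 genes, beside the same shares over all genes, with medians of -0.09 and 0.06 (0.01 and 0.05 with quantile normalization). B2m, the class I light chain, read 45025 and 33359 on the Nrp1-positive arrays and 52667 and 31330 on the Nrp1-negative arrays.

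Interferon gamma is the main inducer of Ciita outside class II-bearing cells. None of its 14 response genes past the level filter passed either fit, beside those same low shares over all genes. Their median difference was 0.10 in replicate 1 and -0.01 in replicate 2. Irf1, the factor it induces directly, read 8467 and 6301 on the Nrp1-positive arrays and 7654 and 6276 on the Nrp1-negative arrays. Among 5 measured receptors of class II and partners of Cd74, Lag3, an inhibitory receptor that binds class II, fell with the replicate block, with differences of -1.84 and -1.68 (adjusted p = 0.0042 in limma). The call was lost without the block (adjusted p = 1.00) and, with the block, without the variance trend. Named after its values were seen, Lag3 read 319.6 and 261.1 on the Nrp1-positive arrays and 1189 and 877.2 on the Nrp1-negative arrays, and Cd4 differed by 0.04 and 0.06.

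Markers of other spleen cells were read beside the members, since in a bulk sample a change in the number of cells of a type and a change in the RNA per cell cannot be told apart. The summed intensity of the 6 members, each by its probe set of highest mean, was 2949 and 4686 on the Nrp1-positive replicate 1 and 2 arrays and 1975 and 9386 on the Nrp1-negative replicate 1 and 2 arrays. The Nrp1-positive over Nrp1-negative ratio of these sums was 1.49 in replicate 1 and 0.50 in replicate 2. No probe set was listed at exactly 0 on any array, so markers are given as dim where they did not pass the level filter.

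Of the B cell markers, 12 of 18 measured were dim, Cd79a, Ms4a1 and Pax5 among them, and their sum was 8326 and 9278 on the Nrp1-positive arrays and 9290 and 10503 on the Nrp1-negative arrays. That sum was mostly Ighm, the IgM heavy chain, and did not have the members' order. Over the 18 measured, the median difference was 0.01 in replicate 1 and -0.35 in replicate 2. Of these 18, 5 were higher in Nrp1-positive cells in replicate 1 and lower in replicate 2, against 23.1% of the genes tested. Plasma cell markers summed to 381.8 and 423.3 on the Nrp1-positive arrays and 407.9 and 840.5 on the Nrp1-negative arrays, highest where the members were highest. Their part in the members' values was not tested.

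Conventional dendritic cell markers summed to 990.0 and 1525 on the Nrp1-positive arrays and 911.9 and 2014 on the Nrp1-negative arrays, in the members' order but over a narrower range. Over the 9 measured, the median difference was -0.01 in replicate 1 and -0.65 in replicate 2. Of these 9, 4 were higher in Nrp1-positive cells in replicate 1 and lower in replicate 2, against 23.1% of the genes tested. Itgax, the CD11c integrin, read 51.5 and 178.2 on the Nrp1-positive arrays and 72.1 and 300.0 on the Nrp1-negative arrays. It was thus lower in Nrp1-positive cells in both replicate numbers. Flt3, Zbtb46 and Xcr1 were dim. Plasmacytoid dendritic cell markers summed to 4399 and 4175 on the Nrp1-positive arrays and 4272 and 4839 on the Nrp1-negative arrays. The part of these cells in the members' values was not tested.

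Monocyte and macrophage markers also had the members' order. They summed to 17569 and 56275 on the Nrp1-positive arrays and 14553 and 61219 on the Nrp1-negative arrays, and 12 of the 17 measured were higher in Nrp1-positive cells in replicate 1 and lower in replicate 2, against 23.1% of the genes tested. The replicate 2 over replicate 1 ratio of the sums was 3.20 in Nrp1-positive cells and 4.21 in Nrp1-negative cells, and 11 of the 13 tested genes were called higher on replicate 2 in limma with the group in the model, a fit added after the data were seen, against 13.4% of all genes. That fit called 2617 genes in either direction, and 514 without the variance trend. The p-values of every limma fit measure only the spread between these arrays, and the labels do not say that the arrays came from separate mice or sorts. The differences between the groups were smaller than the members'. Over the 17 measured, their median was 0.25 in replicate 1 and -0.24 in replicate 2, and over the 13 tested it was 0.25 and -0.19. Tyrobp, a signalling adaptor of myeloid and NK cells, read 503.5 and 2293 on the Nrp1-positive arrays and 420.3 and 3146 on the Nrp1-negative arrays, and the part of these cells was not tested.

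Markers of CD8 T and NK cells summed to 1958 and 2853 on the Nrp1-positive arrays and 1492 and 3613 on the Nrp1-negative arrays, a sum in the members' order. Of the 7 measured, only 1 was higher in Nrp1-positive cells in replicate 1 and lower in replicate 2, against 23.1% of the genes tested. T cell markers summed to 87718 and 79691 on the Nrp1-positive arrays and 86644 and 74627 on the Nrp1-negative arrays. Regulatory T cell markers summed to 49323 and 53392 on the Nrp1-positive arrays and 32645 and 39135 on the Nrp1-negative arrays, higher in Nrp1-positive cells in both replicate numbers. Of these, Ikzf2 and Ikzf4, factors of the Ikaros family named after their values were seen, rose in limma with the replicate block and a variance trend, and not without either. Erythroid markers, a list added after the data were seen, summed to 3819 and 3824 on the Nrp1-positive arrays and 3985 and 5595 on the Nrp1-negative arrays, and Car1 above is on that list. The sums are set beside those of the members in the plot of marker sums.

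**Figure D4:**
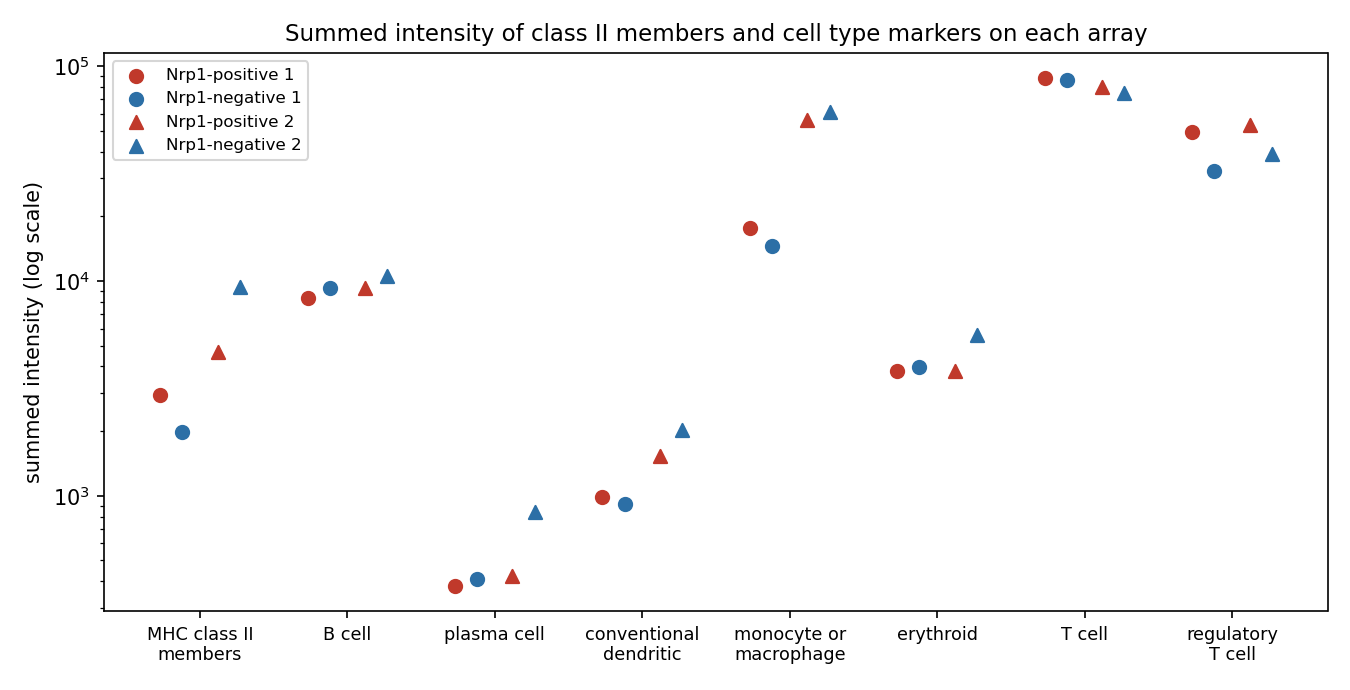
Summed intensity (log axis) of the 6 members and of the marker genes of 7 cell types on the 4 arrays, in red for Nrp1-positive and blue for Nrp1-negative, with circles for replicate 1 and triangles for replicate 2. The members range from 1975 to 9386, and monocyte and macrophage markers from 14553 to 61219, each with the Nrp1-negative replicate 1 array lowest and the Nrp1-negative replicate 2 array highest.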

How the data were processed

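Spleen Treg RNA from 4 samples was hybridised to 1-colour Affymetrix mouse arrays, per the labels' protocols. The authors deposited probe set intensities, which the submitters' processing notes credit to MAS5, without settings. Judged by the values, the scale is linear and uncentred, and the deposited median was 76.7 (replicate 1) and 21.3 (replicate 2) for Nrp1-positive arrays and 78.2 (replicate 1) and 20.2 (replicate 2) for Nrp1-negative arrays. Groups follow the titles.

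A single trimmed mean was set for all arrays, and values were analysed as log2(intensity + 18.3), which understates folds of dim probe sets. By the platform annotation, 34945 of the 45101 probe sets carried 1 gene, 932 several and 9160 none here, besides 64 controls. The filter kept probe sets whose mean reached percentile 50, and each of the 10198 genes was represented by its brightest. limma 3.58.1 in R 4.3.3 (eBayes with trend, two-sided p, Benjamini-Hochberg threshold 0.05) compared Nrp1-positive with Nrp1-negative without a block, with the replicate number as a block, and, for marker lists, replicate 2 with replicate 1. It was tested on simulated data. The block leaves 1 residual degree of freedom a gene beside 8.40 from the variance prior, so its p-values rest mostly on other genes. Across genes, the deviations of the replicate 1 arrays from their group means correlated at 0.726. With 2 arrays a group, the replicate 2 deviations mirror these and add no second pair. The labels do not say what a number marks.

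Members and lists were chosen with earlier results of these data known. Named were every member probe set, genes of the class II and promoter factor lists that were called or at least 2-fold different in either replicate number, up to 4 genes of highest mean from other lists, and 10 genes closest to the members' pattern and 5 with its mirror. Outside this rule, dim B cell and dendritic cell markers were named as examples, and further genes where the text says so. Alternatives changed the scaling, normalization, pseudocount, filter, probe sets, variance trend, replicate block and arrays used. Promoter windows were RefSeq's on GRCm38.p6. Of 23 listed genes, 15 had a window that was used, and Cd74, counted in the 23, was left out of the look-up. The number of arrays limits the precision.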

Additional observations from a re-analysis of the deposited data

Results flagged for a closer look

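For all 6 genes the Nrp1-positive minus Nrp1-negative difference was positive in replicate 1 and negative in replicate 2, on the probe set of highest mean. The replicate 1 difference minus the replicate 2 difference was 2.06 for H2-Ab1, 1.72 for H2-Eb1, 1.68 for H2-Aa, 1.57 for Cd74, 1.23 for H2-DMa and 0.72 for Ciita, on the log2 scale. The difference between replicate numbers was not tested, since each number holds 1 array of each group, and the genes were chosen for it.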

How the results depend on the processing

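Under quantile normalization, scaling to one median and both other pseudocounts, 13 of 14 member probe sets again ran in opposite directions in the replicate numbers, Ciita 1447075_at being the exception. The median difference over all 4 arrays, -0.14, ranged from -1.32 without Nrp1-negative replicate 1 to 1.10 without Nrp1-negative replicate 2, and was -1.49 when the array with conflicting labels joined the Nrp1-positive group. With the replicate block, limma called 57 genes against 0 without it (149 at an unadjusted p under 0.05), and 1 gene of the other class II list against 0. Leaving out 1 array gave 0 to 1 calls, with the lone array assumed to vary like the others. The blocked count was 161 with quantile normalization and 0 without the variance trend, both tried after seeing the data. Genes opposed past 2-fold in either order were 0.0490%, against 0.896% with no filter and 0.157% with a pseudocount of 1. Between replicate numbers 2617 genes were called, against 514 without the trend. Scaling to one median moved the median replicate 2 minus replicate 1 difference of all genes to 0.15, against -0.01. Dim probe sets moved most with the pseudocount: the replicate 2 difference of Ciita 1447075_at was -3.68 with a pseudocount of 1, against -1.47.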

Other observations

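Erythroid markers, a list added after the data were seen, had a median difference of 0.26 in replicate 1 and -1.24 in replicate 2 over the 8 that passed the filter. Over all 12 measured the medians were -0.09 and -1.20, so the replicate 1 sign depended on the filter. Klf1, a transcription factor of red cell precursors named after its values were seen, read 80.7 and 42.1 on the Nrp1-positive arrays and 52.8 and 236.2 on the Nrp1-negative arrays, highest where the class II genes were highest.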
